A study of Homo sapiens with 6 samples.

Results

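The aryl hydrocarbon receptor core and the CYP1 genes are 7 genes here: AHR, ARNT, AHRR, TIPARP, CYP1A1, CYP1A2 and CYP1B1. They were chosen by name, as every array probe that is not a control spot and whose gene name in the scanner files is one of these symbols. This gave 10 probes of the 41000 on the array, which carries 30922 gene names in all. AHRR, ARNT and CYP1A2 had 2 probes each and the other 4 genes had 1 each.

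Gene expression was measured in HepG2, an established human hepatoma cell line, on 6 one-colour Agilent arrays. Treated cells received 100 µg/ml of an extract from Scutellaria baicalensis, a skullcap known for its flavones, and were compared with control cells. RNA of treated cells was hybridised after 1, 3, 6, 12 and 24 h, with 1 array for each time. The study's question is how expression changes with time of exposure. The single control array has no time in the labels and was placed at 0 h by assumption, and the labels name no vehicle for it. HepG2 is 1 tumour line without the other cells of a liver. Since every group is 1 array, replicate error is unknown, and single times carry no p-value.

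The receptor encoded by AHR waits in the cytoplasm with chaperones, binds flat aromatic ligands, enters the nucleus and pairs with the protein encoded by ARNT. The pair binds DNA at response elements with the core letters GCGTG and switches on genes of xenobiotic metabolism, CYP1A1 foremost. Among its targets are also AHRR and TIPARP, whose products act back on the receptor, so that the pathway limits itself.

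A value is a probe's background-corrected signal in percent of the 75th percentile of its array, and a difference is the log2 of that value with the extract minus that of the control. The 75th percentile itself ran from 139 units at 6 h to 1700 units at 3 h, a 12.2-fold range. Probes well above background, by the scanner software's flag, made up 49.5% of the array at 6 h, 64.4% at 12 h and 69.8% to 73.2% on the other arrays. The 6 h and 12 h arrays were thus the dimmest, and the part of this dimness in any result below was not tested except where values without these arrays are given. After scaling, the measured probes had a median difference of 0.32 at 6 h and 0.17 at 12 h. The error given after a difference is an SD for one probe, estimated from the disagreement of probes that share a gene name on the same 2 arrays. It was 0.38, 0.49, 0.79, 0.70 and 0.71 at 1, 3, 6, 12 and 24 h. It holds no variation between cultures. All 12 hepatocyte markers, ALB, AFP, TTR and APOA1 among them, were well above background on all 6 arrays, with a summed level between 39435% at 3 h and 289157% at 6 h, and 9 of the 12 were saturated on at least 1 array. Of the other markers, 4 of 7 haematopoietic, 1 of 6 fibroblast and stellate and 1 of 4 endothelial genes were well above background on all arrays. COL1A1, COL3A1, LUM, CDH5 and KDR were below it on every array. Summed levels ran from 533% to 1100% for the haematopoietic list, 534% to 776% for the fibroblast and stellate list and 20.6% to 48.4% for the endothelial list.

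The probes that carry the results below are printed 5′ to 3′ in lower case, because each reading rests on the letters it hybridises. The first 30 bases are shown for CYP1A1 and AHRR, and all 60 for the CYP1A2 probe that bridges an intron.
CYP1A1 A_23_P163402, first 30: ggtaaaacagggccacatagatgctgatgg
AHRR A_23_P344400, first 30: atcctgaattttgtaaaatatcccaacagt
AHRR A_23_P358709, first 30: agaaagtgtggatgtatcacttctctctaa
CYP1A2 A_23_P206113, all 60: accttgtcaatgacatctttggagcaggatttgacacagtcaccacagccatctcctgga
In the coordinates of the scanner files, whose genome build is not given in the sources used here, the CYP1A1 probe lies at chr15:72799615-72799674 on the minus strand. The AHRR probes lie at chr5:488116-488175 and chr5:491030-491089 on the plus strand. The CYP1A2 probe A_23_P206113 is 60 bases long, but its coordinates run over 515 bases, chr15:72830677-72831191, so it bridges at least 1 intron. Which exon or untranslated region the other probes lie in was not analysed here.

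CYP1A1 and AHRR were more than 2-fold higher than in control cells at 3, 6, 12 and 24 h. The core receptor genes AHR and ARNT and the feedback gene TIPARP were not 2-fold higher at any time in these scaled values. Scaled to spike-in spots, an alternative that raises every difference at 3 h and 24 h, AHR and both ARNT probes were 2-fold higher at 24 h, at 1.45, 1.41 and 1.93, and TIPARP reached 1.0 at 3 h. CYP1A1, a cytochrome P450 that oxidises aromatic compounds, stood at 6.77, 11.6, 14.8 and 8.93 times the control level at 3, 6, 12 and 24 h. AHRR, the repressor that competes with the receptor for ARNT, stood at 2.68, 20.1, 11.5 and 3.60 times the control level at those times by its probe A_23_P344400. AHR was 3.80-fold lower at 6 h and within 1.6-fold of the control at the other times. None of the 10 probes was saturated on any array. In bulk RNA, more cells expressing a gene and more RNA per cell cannot be told apart.

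**Figure D1:**
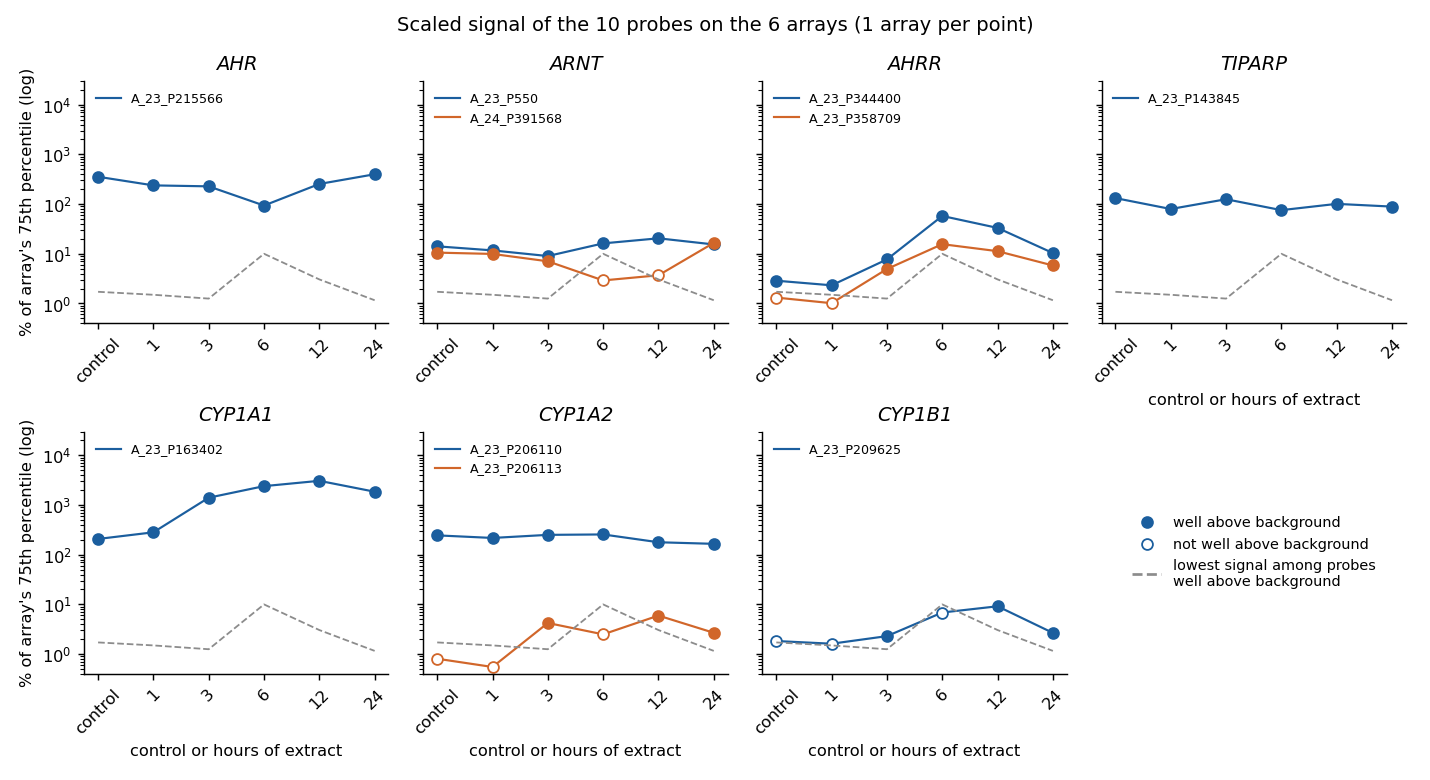
Scaled signal of the 10 probes in percent of the array's 75th percentile (log axis) on the control array and after 1, 3, 6, 12 and 24 h of extract; each point is 1 array, open points were not well above background, and the dashed line is the lowest signal among probes well above background. CYP1A1 stood at 1406% to 3075% from 3 h on, above the 208% of the control, while CYP1A2's probe A_23_P206110 stayed between 166% and 256%.

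AHR encodes the ligand-binding receptor. Its probe gave 355% of the 75th percentile on the control array, then 238%, 228%, 93.5%, 254% and 399% at 1, 3, 6, 12 and 24 h. The 6 h array was the lowest and the 24 h array the highest, and the probe was well above background on all 6. The differences from the control were -0.58 ± 0.38, -0.64 ± 0.49, -1.92 ± 0.79, -0.48 ± 0.70 and 0.17 ± 0.71 in time order. In the order from lowest to highest, 6 h lay 1.28 below 3 h, which was more than that pair's error of 0.88, and no other neighbouring levels differed by more than their error. The 6 h value ranked 541 from the bottom among 19665 measured probes, and no other member probe measured on both arrays was 2-fold lower at any time. When arrays were scaled to their spike-in spots instead, AHR at 6 h was -2.01, but the values at 3 h and 24 h became 0.44 and 1.45, so the sign at 3 h is not settled. The same change moved every probe by 0.22, 1.08, -0.08, 0.32 and 1.28 in time order.

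ARNT encodes the nuclear partner that the receptor needs to bind DNA. Its probe A_23_P550 gave 14.1% on the control array, then 11.7%, 9.0%, 16.2%, 20.5% and 15.4% at 1, 3, 6, 12 and 24 h. Its probe A_24_P391568 gave 10.5% on the control array, then 9.93%, 7.06%, 2.91%, 3.69% and 16.6% at those times, and was not well above background at 6 h and 12 h. Over the arrays on which each was measured, both probes were lowest at 3 h, where their differences were -0.65 and -0.58 with an error of 0.49, and with the spike-in scaling these became 0.43 and 0.50. At 12 h the probes disagreed: A_23_P550 had a difference of 0.54 ± 0.70, whereas A_24_P391568 was 2.86-fold lower. That fold rests on a 12 h signal not well above background and is not a bound. At 6 h A_23_P550 had 0.20 ± 0.79 and A_24_P391568 was at least 1.05-fold lower. The mean of the 2 probes was -0.83 at 6 h and -0.49 at 12 h, using A_24_P391568 values not well above background. The direction for ARNT at these 2 times thus depends on the probe. At 24 h both were above the control, by 0.13 and 0.65, within the error of 0.71, and with the spike-in scaling by 1.41 and 1.93, which is beyond it.

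AHRR, an inducible repressor of the receptor, had 2 probes that moved alike. Probe A_23_P344400 gave 2.87% on the control array, then 2.32%, 7.71%, 57.7%, 33.2% and 10.3% at 1, 3, 6, 12 and 24 h, and was well above background on all 6 arrays. Probe A_23_P358709 gave 1.31% on the control array, then 1.01%, 4.94%, 15.6%, 11.3% and 5.82% at those times. At control and 1 h it was not well above background, so its folds are lower bounds against the lowest signal that counts as well above background on the control array. For both probes the 4 arrays from 3 h to 24 h lay above the control and 1 h arrays, with 6 h the highest, then 12 h, then 24 h.

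The differences of A_23_P344400 were -0.31 ± 0.38, 1.42 ± 0.49, 4.33 ± 0.79, 3.53 ± 0.70 and 1.85 ± 0.71 at 1, 3, 6, 12 and 24 h. Probe A_23_P358709 was at least 2.87-fold, 9.09-fold, 6.57-fold and 3.39-fold higher at 3, 6, 12 and 24 h. At 6 h A_23_P344400 ranked 7 from the top of 19665 measured probes, and at 12 h it ranked 13 of 25300. At 3 h and 24 h its ranks were 389 of 27184 and 313 of 26904. In the order of levels, 1 h and control did not differ by more than their error, nor did 24 h and 3 h. With normexp background correction, which adds an offset of 50 units to every signal, the difference was 0.22 at 3 h and 0.60 at 24 h, below 2-fold, and 3.10 at 6 h and 2.36 at 12 h. In signal units this probe had 19.9 on the control array, under that offset, and 22.8, 131, 80.2, 124 and 151 at 1, 3, 6, 12 and 24 h. The unscaled signal was above the control at all 4 later times, including on the 2 dimmest arrays.

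TIPARP encodes a mono-ADP-ribosyltransferase, a target gene whose product inactivates the receptor. Its probe gave 132% on the control array, then 79.7%, 125%, 75.5%, 101% and 89.0% at 1, 3, 6, 12 and 24 h. In these scaled values all 5 treated arrays lay below the control, and no neighbouring levels in the order differed by more than their error. The difference exceeded its error at 1 h, at -0.73 ± 0.38, which ranked 1002 from the bottom of 27391 measured probes, and marginally at 6 h, at -0.81 ± 0.79. At 3 h the difference was -0.08 ± 0.49, the time at which CYP1A1 and AHRR were already raised more than 2-fold. With the spike-in scaling TIPARP had 1.0 at 3 h and 0.71 at 24 h, so its direction at these times depends on the scaling.

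CYP1A1 is the gene most used to read out activity of the receptor. Its probe gave 208% on the control array, then 283%, 1406%, 2403%, 3075% and 1856% at 1, 3, 6, 12 and 24 h. In signal units these were 1440 on the control array, then 2780, 23900, 3340, 11500 and 27100. Every treated array was above the control in both units, also the 2 dimmest. The differences were 0.44 ± 0.38, 2.76 ± 0.49, 3.53 ± 0.79, 3.89 ± 0.70 and 3.16 ± 0.71 in time order. At 3 h CYP1A1 had the largest difference of all 27184 measured probes, and it ranked 33, 6 and 4 from the top at 6, 12 and 24 h. The steps from control to 1 h and from 1 h to 3 h exceeded their errors of 0.38 and 0.32. The levels at 3, 24, 6 and 12 h, in rising order, did not differ from their neighbours by more than the error. With normexp background correction the difference at 6 h was 2.0.

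**Figure D2:**
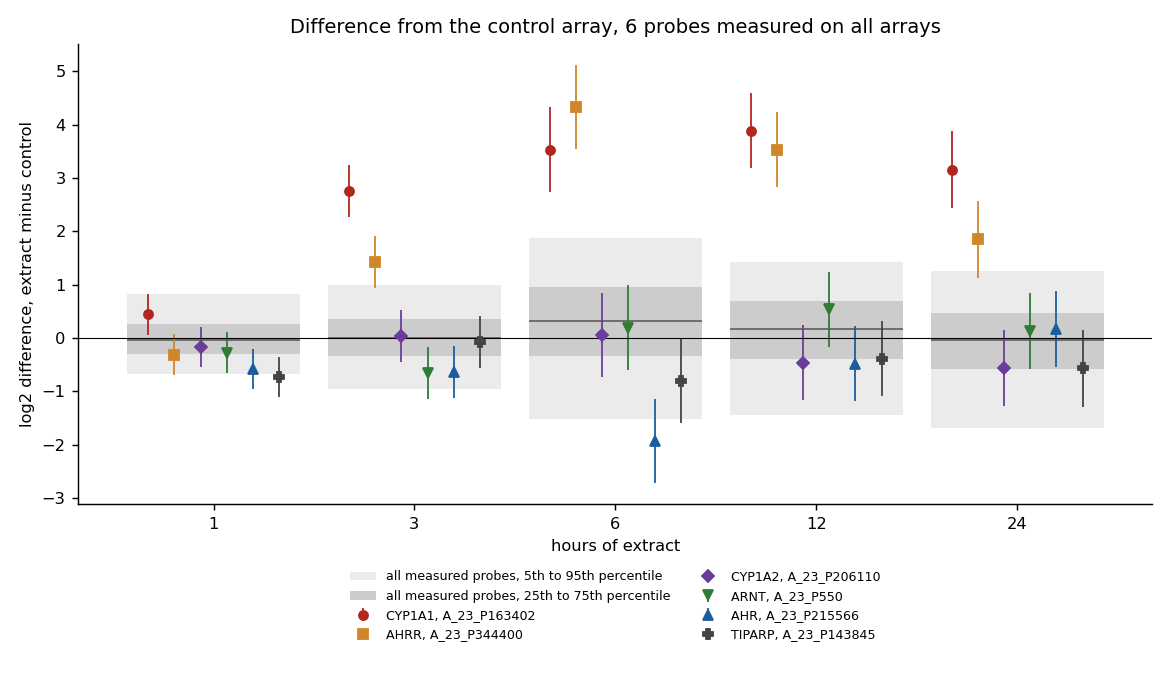
Log2 difference of each extract array minus the control array, by hours of extract, for the 6 member probes well above background on all arrays; bars are the error of one probe (SD), and grey bands hold the middle 50% and 90% of all measured probes, with their median as a line. CYP1A1 and AHRR lie above the bands from 3 h to 24 h. AHR lies below them at 6 h, and TIPARP at 1 h.

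CYP1A2 encodes the sister enzyme, strong in adult liver, and its 2 probes gave different accounts. Probe A_23_P206110 gave 245% on the control array, then 218%, 251%, 256%, 178% and 166% at 1, 3, 6, 12 and 24 h. Its differences ran from -0.57 ± 0.71 at 24 h to 0.06 ± 0.79 at 6 h, all within their errors, and no neighbouring levels in the order differed by more than theirs. Probe A_23_P206113, the one that bridges an intron, gave 0.81% on the control array, then 0.55%, 4.23%, 2.5%, 5.96% and 2.68% at those times. It was well above background at 3, 12 and 24 h and not at 1 h, 6 h or in the control. In signal units it had 5.59 on the control array, then 5.41, 71.9, 3.47, 22.3 and 39.2 in time order. It was at least 2.46-fold, 3.47-fold and 1.56-fold higher at 3, 12 and 24 h, and no fold can be given at 1 h and 6 h. With the spike-in scaling A_23_P206110 had 1.11 at 3 h and 0.71 at 24 h. Where the mean of the 2 probes stood for the gene, the difference was 1.21 at 3 h, against 0.03 by A_23_P206110 alone. That mean uses A_23_P206113's control value, which was not well above background. A reading of CYP1A2 from one probe therefore differs from a reading by the other.

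CYP1B1, the third enzyme of the family and mainly expressed outside the liver, was near the limit of measurement. Its probe gave 1.83% on the control array, then 1.62%, 2.30%, 6.87%, 9.17% and 2.67% at 1, 3, 6, 12 and 24 h. Only the 3, 12 and 24 h arrays had it well above background. Against its control signal it was 1.26-fold, 5.0-fold and 1.46-fold higher at 3, 12 and 24 h. That control signal was not well above background, so these folds are plain ratios and not bounds. The 12 h array was the highest of the 3 on which it was measured, 1.78 above 24 h with an error of 0.75, whereas 3 h and 24 h did not differ by more than their error.

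Counted over the member probes measured on both arrays, 0 of 7 were at least 2-fold higher at 1 h, against 2.9% of all measured probes, and 0 of 7 were 2-fold lower, against 0.924%. At 3 h 2 of 7 were higher, against 4.85%, and 0 lower, against 4.56%. At 6 h 2 of 6 were higher, against 23.5%, and 1 lower, against 10.7%. At 12 h 2 of 6 were higher, against 13.5%, and 0 lower, against 10%. At 24 h 2 of 7 were higher, against 8.68%, and 0 lower, against 13.6%. The higher ones were CYP1A1 and AHRR's A_23_P344400 at each time from 3 h on, and the lower one was AHR. At 6 h the members' count of higher probes stood near the background. The members' median difference was -0.27, -0.08, 0.13, 0.08 and 0.17 in time order, against -0.04, -0.002, 0.32, 0.17 and -0.03 for all measured probes. With normexp background correction the higher count was 1 at 3 h and 1 at 24 h, and with the spike-in scaling it was 4 and 5.

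Over the whole time course a slope on log2(hours + 1) was tested with limma for 28649 probes well above background on at least 3 arrays. No probe reached a Benjamini-Hochberg adjusted p under 0.05 (0% of those tested), and the smallest adjusted p was 0.183. At an unadjusted p under 0.05, 3.26% rose and 7.74% fell. All 10 member probes were tested. CYP1B1, CYP1A2's A_23_P206113 and AHRR's A_23_P358709 entered only through extract arrays, which favours an upward slope. Their slopes are therefore no support for a rise. CYP1A1 had a fitted change of 3.91 ± 0.88 (SE) from control to 24 h, with an unadjusted limma p of 0.00272 and an adjusted p of 0.265. AHRR's A_23_P344400 had 3.40 ± 1.41, with an unadjusted limma p of 0.0445 and an adjusted p of 0.444. The 3 probes that entered through extract arrays had 3.30 for A_23_P358709, 2.66 for A_23_P206113 and 1.68 for CYP1B1. The other probes had fitted changes of -0.04 for AHR, 0.53 and -0.33 for the ARNT probes, -0.36 for TIPARP and -0.52 for A_23_P206110, each smaller than 1.5 times its SE.

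Without the dim 6 h and 12 h arrays, 2368 of 28649 tested probes had an adjusted limma p under 0.05. Of the 10 member probes only CYP1A1 was among them, with a fitted change of 3.29 ± 0.69 and an adjusted p of 0.0268. AHRR's A_23_P344400 then had 2.12 ± 0.55 with an adjusted p of 0.0501, which did not pass the threshold. This fit rests on 4 arrays, and the slope cannot be told apart from a difference between the control and 1 h arrays on one side and the 3 h and 24 h arrays on the other.

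**Figure D3:**
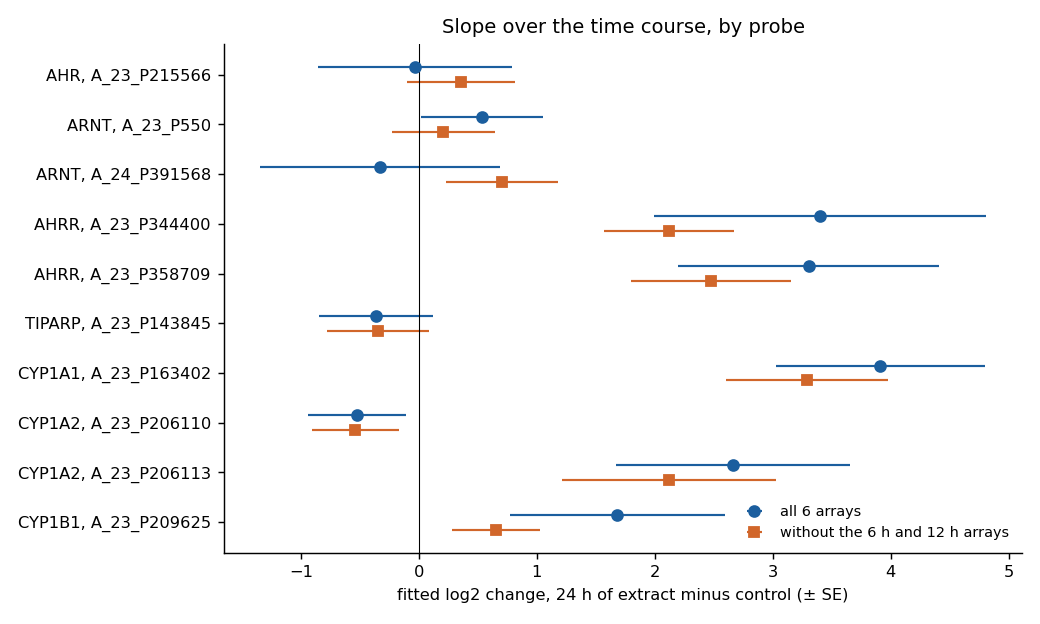
Fitted log2 change from the control to 24 h of extract for each member probe (± SE), over all 6 arrays and without the 6 h and 12 h arrays. CYP1A1 and AHRR's A_23_P344400 lie between 2.12 and 3.91 in both fits. For the probes that entered only through extract arrays, that entry favours an upward slope. The probes of AHR, ARNT and TIPARP and A_23_P206110 lie within 1 of 0.

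The stretch around the start site was read for 6 of the 7 genes from RefSeq's promoter windows of the build GRCh38.p14, which run from 250 bases before the start site to 50 after it. CYP1B1 had no entry. The motif searched was GCGTG on both strands, the core of the response element, and it is a description of letters and not of a bound site. Of the 9 windows of members, 5 held it, in CYP1A1, AHRR, AHR and TIPARP, against 36.5% of 35116 windows of the same length. In AHR it lay 37 bases after the start site, not before it. The longer motif TNGCGTG, searched on both strands and always containing the first, was in 1 member window, one of AHRR's, against 5.51% of all. The response elements best known for CYP1A1 lie further upstream than this window reaches. The 250 bases before the start site are shown for CYP1A1, and for the AHRR window with the longer motif, since these 2 genes were more than 2-fold above the control at all 4 times from 3 h on. Capitals mark GCGTG. The CYP1A1 stretch is chr15:74725529-74725778 on the minus strand and the AHRR stretch is chr5:321464-321713 on the plus strand.
CYP1A1: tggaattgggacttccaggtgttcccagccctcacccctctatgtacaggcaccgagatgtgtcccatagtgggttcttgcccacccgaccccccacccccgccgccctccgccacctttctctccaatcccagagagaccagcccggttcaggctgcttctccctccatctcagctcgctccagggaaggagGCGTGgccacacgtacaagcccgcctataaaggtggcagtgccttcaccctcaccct
AHRR: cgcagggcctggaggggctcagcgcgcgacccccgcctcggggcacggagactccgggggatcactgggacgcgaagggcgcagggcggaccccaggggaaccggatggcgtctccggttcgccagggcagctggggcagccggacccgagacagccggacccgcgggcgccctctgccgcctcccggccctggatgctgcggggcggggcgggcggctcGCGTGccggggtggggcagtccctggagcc
The motif began 57 bases before the start site in CYP1A1 and 30 bases before it in this AHRR window. The second AHRR window held it at 247 and 42 bases before its own start site.

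The 5 genes whose profile over the 6 arrays was most like that of CYP1A1 were RPL23AP32, CTNNB1, NSDHL, ATG12 and PGS1. The measure was the root mean square difference between log2 profiles, each centred on its own mean, among 12832 probes of other named genes that were measured on all 6 arrays. It was 0.49 for the ribosomal protein pseudogene RPL23AP32, 0.57 for the cell adhesion and Wnt gene CTNNB1, 0.76 for the sterol enzyme gene NSDHL, 0.76 for the autophagy gene ATG12 and 0.77 for PGS1. The median over the pool was 1.46. For AHRR's A_23_P344400 the 5 were ZNF182 at 0.49, CTNNB1 at 0.63, PHRF1 at 0.64, the telomerase gene TERT at 0.66 and MYOF at 0.66, with a pool median of 1.63. CTNNB1 stood in both groups through the same probe, and its other probe differed by 2.75 from CYP1A1 and by 3.05 from AHRR. The other probe of RPL23AP32 differed by 1.76 from CYP1A1, more than the pool median. The profiles share the same 6 arrays and their scaling, and the likeness is a description over 6 points.

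Other genes of the pathway were described by 7 lists, with a gene taken at its probe of highest mean. No list member had an adjusted limma p under 0.05 for a slope, as for all genes. At each time the counts of genes at least 2-fold higher or lower stand beside the shares of all measured genes, which at 6, 12 and 24 h were 25.1%, 14.6% and 6.67% higher and 10.0%, 9.29% and 14.2% lower. With the spike-in scaling 53.0% of all genes were 2-fold higher at 3 h and 61.1% at 24 h, and no measured gene of any list was 2-fold lower at those times, so directions at 3 h and 24 h depend on the scaling. This scaling moves every probe of an array by the same amount. It therefore cannot change the order of a list's median against that of all genes, and an unchanged order says nothing about robustness.

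Among other known targets of the receptor, UGT1A6 was more than 2-fold higher at 6, 12 and 24 h. Of 14 genes, 13 were on the array and 8 to 10 were measured at a time. None was 2-fold apart at 1 h and 3 h, when 2.21% and 3.64% of all genes were higher and 0.978% and 5.12% lower. At 6 h 1 was higher and 4 lower of 8, at 12 h 2 higher and 1 lower of 10, and at 24 h 3 higher and 0 lower of 10. The list's median was -0.99 at 6 h, against 0.36 for all genes, and -0.32 at 24 h, against -0.07. UGT1A6, which encodes an enzyme that joins glucuronic acid to phenols, gave 32.2% on the control array, then 27.6%, 62.9%, 70.5%, 89.0% and 105% at 1, 3, 6, 12 and 24 h. Its differences were -0.22, 0.97, 1.13, 1.47 and 1.71 in time order, with an unadjusted limma p of 0.00292 and an adjusted p of 0.265. Its second probe had 0.34, 2.14, 2.06 and 2.69 at 1, 3, 12 and 24 h. Genes of the UGT1A locus share exons, so these probes may read more than 1 of them. CYP2S1, a P450 expressed mainly outside the liver, had -1.86 at 6 h and -1.66 at 12 h but -0.33 at 24 h. EREG, a growth factor of the EGF family, was 1.27 above the control at 24 h, at 11.6% with the extract and 4.82% on the control array. The other probe of EREG was not well above background on any array. The Notch target HES1 had -1.55 at 6 h, while its other probes had -0.74 at 6 h and 1.29 and -1.48 at 24 h, so the probes disagree in sign.

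Genes of the receptor's chaperone complex and of its turnover showed none that was 2-fold higher at any time by the chosen probes. There were 2 of 7 lower at 6 h, 1 of 7 at 12 h and 1 of 5 at 24 h. CUL4B, the scaffold of a ubiquitin ligase, had -2.30 at 6 h and -1.08 at 24 h by one probe, and 0.49 and 0.99 by its other. HSP90AA1, the chaperone that holds the unbound receptor, had 0.59 and 0.68 at 6 h and 12 h, and was saturated at 3 h and 24 h. Its other probes had 1.19, 1.11 and 0.41 at 6 h, so 2 of them were more than 2-fold higher there. STUB1, a co-chaperone ligase, had 0.33, 0.01, 0.64, 0.63 and 0.56 in time order. The kinase gene SRC had 0.79 at 1 h and -1.48 at 6 h. The list's median was 0.37 at 6 h and -0.12 at 24 h, against 0.36 and -0.07 for all genes.

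Among relatives of AHR and ARNT in the bHLH-PAS family, 5 of 11 measured genes were 2-fold lower at 24 h and 0 higher, with a median of -0.60 against -0.07 for all genes. At 6 h 1 was higher and 2 lower of 9. At 1 h 1 of 11 was higher, and at 12 h 1 of 11 was lower. NPAS3 had differences of 1.21 at 1 h and -2.22 at 24 h, with an unadjusted limma p of 0.00631 and an adjusted p of 0.292 for its slope. The other probe of NPAS3 was not well above background on any array. HIF3A, a regulator of hypoxia factors, had -1.29 at 24 h by its chosen probe and -0.61 by another. Its remaining probes were not well above background on any array. ARNTL2, a clock gene, had -1.38 at 24 h by its chosen probe and 0.41 and -0.85 by its others. SIM1 had -1.13 at 24 h. With normexp background correction 2 genes were 2-fold lower at 24 h, and with the spike-in scaling 0 were lower and 4 higher.

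Coactivators and corepressors that the receptor pair recruits had 4 of 8 genes 2-fold lower and 0 higher at 24 h. At 12 h 3 of 8 were lower and 1 higher, at 6 h 2 of 7 lower and 1 higher, and at 3 h 1 of 8 lower. The median was -0.84, -0.24 and -0.95 at 6, 12 and 24 h. With the spike-in scaling 0 were lower and 3 higher at 24 h, and 3 were lower at 6 h and 2 at 12 h. NCOA3, a p160 coactivator, gave 333% on the control array, then 254%, 148%, 94.2%, 93.6% and 70.5% in time order. Its difference was -2.24 at 24 h, its other probes had -1.19 and -1.79 there, and its slope had an unadjusted limma p of 0.000703 and an adjusted p of 0.19. NRIP1, a corepressor, had -2.07 at 6 h and -1.06 at 24 h. EP300, an acetyltransferase, had -2.21 at 12 h and -1.13 at 24 h. SMARCA4, the ATPase of a chromatin remodelling complex, had 1.57 at 6 h and 0.18 at 24 h, and 0.68 and 1.59 by one other probe. It was the gene counted as higher at 6 h and 12 h. That count was 0 at both times with quantile normalization, and 0 and 1 with normexp background correction.

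Electron donors of P450 enzymes and haem synthesis genes were 0 of 11 at least 2-fold apart at 1, 3 and 24 h, and 2 higher with 2 lower at 6 h. At 12 h 2 were higher and 1 lower. That higher count was 0 with quantile normalization and with normexp background correction, and the lower count was 0 with the second. With the spike-in scaling 9 of 11 were higher at 3 h and 11 of 11 at 24 h. UROD, an enzyme in the middle of haem synthesis, had a difference of 1.5 at 6 h and of 0.32 at 24 h. CPOX, a later enzyme of the same route, had -1.93 at 6 h and 0.72 at 24 h, and CYB5B, a cytochrome b5, had -1.17 and 0.58. The list's median was 0.32 at 24 h, against -0.07 for all genes.

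Enzymes of tryptophan breakdown, a route through kynurenine, itself a ligand of the receptor, were measured for 4 of 8 genes. TDO2, IDO1 and IDO2 were not among these 4. AFMID, which forms kynurenine, had 50.3% and 55.4% at 1 h and 3 h of extract, against 25.1% on the control array. It had 29.0% at 24 h. The remaining 3, KMO, AADAT and KYNU, act on kynurenine. They stayed within 2-fold at all times by their chosen probes in these scaled values, while KYNU's other probe had 1.97 at 24 h. With normexp background correction 3 of the 4 measured genes were 2-fold higher at 6 h, and 0 at 1 h and 3 h. With quantile normalization 0 were higher at 1 h. Of the 5 mono-ADP-ribosyltransferase relatives of TIPARP, PARP10 was more than 2-fold lower at 12 h and 24 h, with -1.29 and -1.42, after 0.93 at 1 h, but its other probe had 0.47 and -0.93. PARP12, PARP11 and ZC3HAV1 stayed within 2-fold by their chosen probes in these scaled values. With normexp background correction 2 genes of this list were 2-fold lower at 6 h, and 1 was higher at 12 h.

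**Figure D4:**
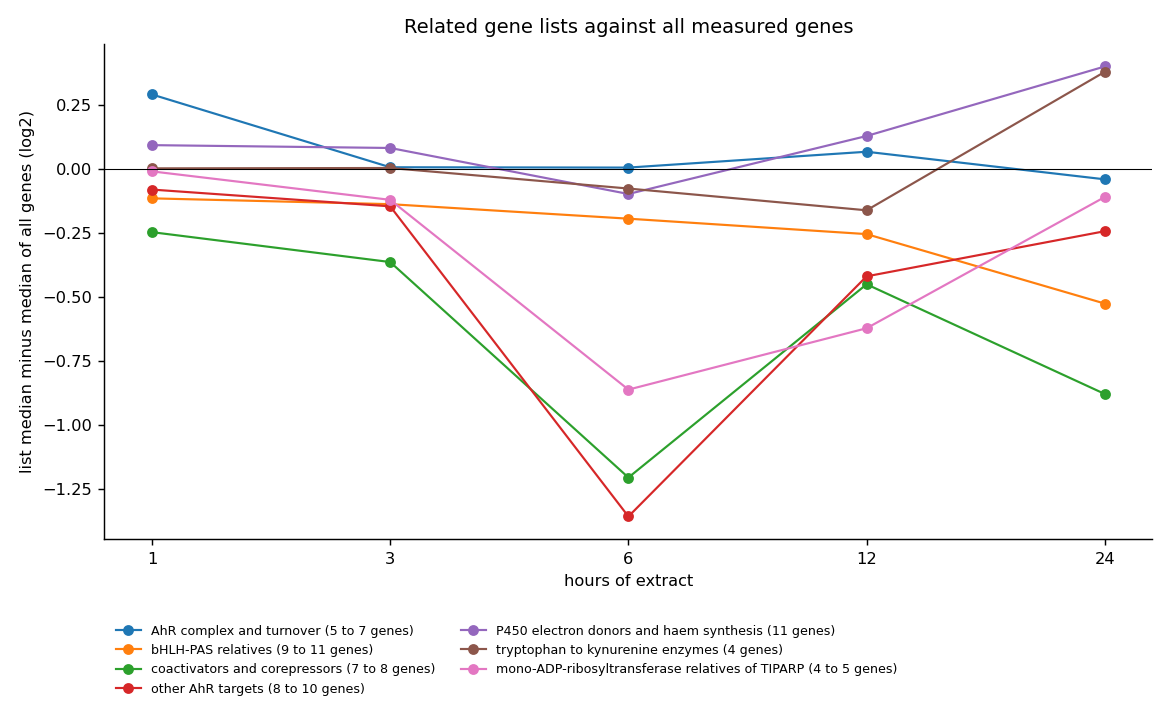
Median log2 difference from the control of the measured genes of each list minus the median of all measured genes, by hours of extract. Other receptor targets and coactivators lie lowest at 6 h, and the coactivators and the bHLH-PAS relatives lie lowest at 24 h.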

How the data were processed

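The members and all gene lists were chosen with earlier results of these data known. RNA was amplified and labelled with an Agilent kit, per the labels' protocols. Cy5 is the dye in the labels, but the files have columns of the green channel only. The deposited files give an intensity for each spot, and the processed signal used here was corrected for local background by the scanner software, per the file headers. Its version is not given in the sources used here. The authors' deposited value table, also intensity, covered 35646 probes and served as an alternative.

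The 1639 control spots per array and 105 probes with an outlier spot were left out, leaving 40895 probes, and spots of a probe were averaged. The log2 signal minus each array's 75th percentile was used. Differences are descriptive, since each group held 1 array. Counts took probes well above background and unsaturated on both arrays. Where one array was not, the fold was taken against the lowest signal well above background or the probe's own, whichever is higher. It is a bound in the first case and a plain ratio in the second. Slopes were fitted with limma 3.58.1 in R 4.3.3, which leaves 4 residual degrees of freedom over 6 arrays, after a test on simulated data. Tables and figures used Python 3.11.15, pandas 2.3.3, numpy 2.4.6 and matplotlib 3.10.9. The number of arrays limits the precision. Repeated spots of a probe had an SD of log2 signal of 0.0913 to 0.112 on an array. Named genes were all members, up to 4 genes per list with the largest difference at any time, and the 5 genes most like CYP1A1 and AHRR. A gene that this rule names and a probe sequence are not reported here. Alternatives were other scalings, background correction, the authors' values, time scales, filters and left-out arrays.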

Additional observations from a re-analysis of the deposited data

How the results depend on the processing

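Of 183 differences of single member probes recomputed under other scalings, normexp background correction, the authors' values and gene means, 157 moved by less than the error of a probe and 26 by more, of which 14 came from spike-in scaling, an alternative chosen after seeing the data. The counts of members at least 2-fold higher or lower were within 1.5 times in 46 of 50 cases. The exceptions were 1 higher at 3 h and 1 at 24 h with normexp background correction, and 4 at 3 h and 5 at 24 h with spike-in scaling, against 2 at each of these times. Spike-in scaling raised the difference of every probe by 1.08 at 3 h and 1.28 at 24 h. Why the counts were lower with normexp background correction was not tested. The count of probes with an adjusted p under 0.05 for a slope was 0 in the main setting, where 3151 probes had an unadjusted p under 0.05. It was also 0 with each array left out in turn and in every other alternative except one. Without the 6 h and 12 h arrays it was 2368 of 28649 tested. Over the main setting and 15 alternatives, the smallest adjusted p of CYP1A1 was 0.0268 and the largest 0.959, with fitted changes from 3.29 to 5.5, and for AHRR's A_23_P344400 they ran from 1.96 to 5.84 with adjusted p from 0.0501 to 0.999. Of 70 list counts each, 16 moved with normexp background correction, 7 with quantile normalization and 24 with spike-in scaling. Slide was not used as a block, because the sources used here do not say which arrays shared a slide. The control and 6 h arrays lay at the same slide position, and so did the 1 h and 24 h arrays, so at least 2 slides were used, and slide and time cannot be told apart. No paired analysis was possible because each group holds 1 array. Dim signal limited CYP1B1, CYP1A2's A_23_P206113 and AHRR's A_23_P358709, whose control values were not well above background.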
